A study of Mus musculus with 192 samples.

Results

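The 5 genes described here encode the ubiquitin-like modifier ISG15 and the enzymes that attach it to proteins or remove it: Isg15, Uba7, Ube2l6, Herc6 and Usp18. They were chosen by name as the rows of these genes in a table of 23481 genes, and all 5 passed the filter on low counts. Messenger RNA was measured in dendritic cells, which take up and present antigen, grown from the bone marrow of female C57BL/6J mice (mouse cells throughout) aged 6 to 8 weeks in medium with 15 ng/mL GM-CSF. Wells of 100000 cells were left as the control, Ctrl, or stimulated for 6 hours with ligands of the receptors by which innate immune cells sense microbes. The 7 ligands keep the submitters' names, PAM, HMW, LPS (lipopolysaccharide), Zymosan (labelled Zymosan depleted), SeV, cGAMP (labelled 3',3'-cGAMP) and CpGB. Each was given alone, in all 21 pairs and in all 35 triplets, which with Ctrl makes 64 groups of 3 libraries. The labels do not say whether the 3 libraries of a group came from separate animals or cultures, so p-values measure the spread between libraries.

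ISG15 is made after stimulation by type I interferon and is joined to lysines of target proteins by a cascade like that of ubiquitin. UBA7 is the activating enzyme, UBE2L6 the conjugating enzyme that takes ISG15 over from it, and HERC6 the main ligase of the mouse, which hands it to substrates. USP18 is the protease that cuts ISG15 off its targets, and it also binds the type I interferon receptor and dampens its signal. Dendritic cells make interferon when receptors for nucleic acids or for LPS are engaged, and the interferon then acts back on the same culture.

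The genes lie on 4 chromosomes of the mm10 (GRCm38) mouse genome: Ube2l6 on chromosome 2 from 84798828 to 84810003, Isg15 on chromosome 4 from 156199424 to 156200818, Herc6 on chromosome 6 from 57580992 to 57665136, Usp18 on chromosome 6 from 121245906 to 121270917, and Uba7 on chromosome 9 from 107975567 to 107984056. The bases just upstream of the RefSeq starts of Isg15 (chr4:156200819-156200968, minus strand) and Uba7 (chr9:107975417-107975566, plus strand) are printed. Of the searched genes only these held a match to AANNGAAA, and interferon regulatory factors are known to read repeats of GAAA. Each stretch is the 150 bases before the start of transcription, read 5′ to 3′ along the gene, with matches to AANNGAAA on either strand in capitals.
Isg15: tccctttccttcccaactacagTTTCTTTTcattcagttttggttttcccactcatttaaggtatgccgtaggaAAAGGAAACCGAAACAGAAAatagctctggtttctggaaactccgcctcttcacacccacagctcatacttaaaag
Uba7: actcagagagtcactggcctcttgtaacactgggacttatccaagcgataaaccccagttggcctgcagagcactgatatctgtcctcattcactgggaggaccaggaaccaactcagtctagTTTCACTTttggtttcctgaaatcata
The Isg15 stretch held 4 matches to AANNGAAA, 3 of them overlapping in the run from -76 to -57 and 1 on the other strand from -128 to -121, counted from the start site. The same stretch held 3 overlapping copies of a longer pattern, GAAA followed after any 2 bases by another GAAA, between -78 and -57. Uba7 held 1 match to AANNGAAA, from -27 to -20 on the strand opposite the gene. In the 250 bases upstream of 32851 RefSeq starts, AANNGAAA on either strand was present in 21.3% and the longer pattern in 2.98%. The entries of Herc6 and Ube2l6, whose messages also rose, held no match to these letters, and Usp18 was not searched. A match describes the sequence and was not tested as a binding site.

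Values are counts of unique molecular identifiers (UMIs, tags that mark 1 original cDNA molecule), given below as CPM, counts per 1000000 counted UMIs scaled for composition by the TMM method. Libraries held 46564 to 610234 UMIs, with a median of 171616. The Ctrl libraries were the shallowest group, with 73431 ± 14389 UMIs (SD, n = 3). Markers of GM-CSF grown dendritic cells and macrophages were present in every group, 8 of 8 tested, and summed to 8931 to 15842 CPM per library. Lyz2 made up most of this sum, with 9450 CPM in Ctrl. Ccr2 was at 0 in 14 libraries, with group means from 4.72 to 172 CPM. The sum was 15249 CPM in Ctrl and between 10782 CPM (LPS) and 14174 CPM (HMW) with single ligands. Against Ctrl 3 of the 8 were lower with LPS (9.6% of all genes), 1 each with cGAMP (5.91%), CpGB (6.27%), PAM (5.89%) and Zymosan (1.82%). On average over single ligands, adding LPS lowered 6 of the 8 and raised 2, and adding cGAMP lowered 6, where 22.7% and 20% of all genes were lower. Neutrophil markers summed to 378 to 1120 CPM and none of the 5 tested was called with any single ligand against Ctrl. Adding LPS raised 1 of the 5 on average over single ligands and 3 over pairs, where 25.6% and 23.9% of all genes were higher. B cell markers summed to at most 36.8 CPM, T and NK cell markers to 8.85 CPM, mast cell and basophil markers to 26.2 CPM, and erythroid markers were at 0. The 6 plasmacytoid dendritic cell markers summed to 15.1 to 304.5 CPM per library, with means of 70.9 CPM in Ctrl, 184 CPM with LPS, 153 CPM with SeV and 159 CPM with cGAMP. Of these only Tcf4 was tested, and it was called higher with LPS, SeV and cGAMP. Runx2 (411 UMIs in all) was at 0 in 34 libraries, and the defining marker Siglech (35 UMIs) in 161. The part of these shifts in the results below was not tested, and in bulk RNA fewer cells of a type and less RNA per cell cannot be told apart.

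The first comparison asked how each ligand alone moved the 5 genes against Ctrl. All 5 rose with each of LPS, cGAMP, SeV and CpGB, and none passed the test with PAM, HMW or Zymosan. A gene was called at an adjusted p under 0.05 (edgeR's quasi-likelihood test over the 4720 tested genes, Benjamini-Hochberg adjustment) and a log2 fold change of at least 1. Over all tested genes, 14.6% were called higher with LPS, 11.7% with cGAMP, 10.5% with SeV and 10.8% with CpGB, against 8.01% with PAM, 4.43% with Zymosan and 0.953% with HMW. The median log2 fold change of the 5 genes was 2.99 with LPS, 2.87 with cGAMP, 2.49 with SeV and 2.24 with CpGB, where the median of all tested genes lay between -0.09 and -0.03. It was 0.48 with HMW, 0.34 with PAM and 0.10 with Zymosan. DESeq2 also called 0 of 5 with each of these 3 ligands, and at an unadjusted p under 0.05 edgeR had 1 with HMW (Herc6) and 0 with PAM and Zymosan.

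Isg15, the modifier itself, stood at 139, 225 and 182 CPM in the 3 Ctrl libraries. With LPS it reached 1645, 1652 and 1378 CPM, and with cGAMP 1476, 1356 and 1215 CPM. With SeV it was at 1032, 1096 and 976 CPM, and with CpGB at 699, 991 and 862 CPM. Every library of these 4 ligands was above every Ctrl library, and the fold change was largest with LPS (log2 fold change 3.08 ± 0.22 SE, edgeR adjusted p = 1.66e-30) and smallest with CpGB (2.24 ± 0.23, edgeR adjusted p = 1.31e-16). PAM gave 171, 191 and 261 CPM, Zymosan 147, 243 and 187 CPM, and HMW 316, 283 and 191 CPM, and each of these ranges overlapped Ctrl. The annotation lists an Isg15 pseudogene, Gm9706, that has no row in the table, and the treatment of reads matching several places is not given in the sources used here, so the Isg15 level carries that uncertainty.

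Uba7, the activating enzyme, stood at 83.1, 112 and 76.8 CPM in Ctrl and had a smaller range than Isg15. LPS brought it to 372, 449 and 371 CPM, which is a log2 fold change of 2.14 ± 0.27 (SE, edgeR adjusted p = 4.48e-12). SeV gave 401, 368 and 244 CPM (1.84 ± 0.29, edgeR adjusted p = 2.78e-08). cGAMP gave 284, 281 and 282 CPM (1.64 ± 0.29, edgeR adjusted p = 1.31e-06). CpGB was lowest of the 4 at 223, 260 and 254 CPM, still above every Ctrl library (1.47 ± 0.30, edgeR adjusted p = 2.02e-05). For Uba7 the order of means put SeV above cGAMP, the reverse of Isg15, but the SeV and cGAMP libraries overlapped.

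Ube2l6, the conjugating enzyme, had the fewest UMIs of the set summed over all libraries (6060), and 3, 1 and 9 UMIs in the Ctrl libraries, or 41.6, 12.5 and 86.4 CPM. It stood at 201, 227 and 179 CPM with LPS (log2 fold change 1.98 ± 0.39 SE, edgeR adjusted p = 7.28e-06), a call that was lost in libraries thinned to the lowest total (1.25, edgeR adjusted p = 0.0542). The level was 248, 187 and 135 CPM with cGAMP, 116, 174 and 217 CPM with CpGB, and 172, 115 and 197 CPM with SeV. These 4 ligands overlapped one another, and all their libraries were above Ctrl.

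Herc6, the ligase, had 0, 3 and 4 UMIs in the Ctrl libraries. The library without a UMI allows a level of up to 41.6 CPM, the worth of 3 counts at its depth, and covers counting error only. cGAMP brought Herc6 to 330, 409 and 313 CPM and LPS to 305, 333 and 380 CPM. Their log2 fold changes, 3.66 ± 0.40 (edgeR adjusted p = 2.59e-15) and 3.62 ± 0.40 (edgeR adjusted p = 1.75e-15), were the largest of the 5 genes and rest on the 7 UMIs of Ctrl. SeV gave 315, 322 and 286 CPM and CpGB 136, 179 and 235 CPM. With HMW the 3 libraries were at 33.3, 126 and 65.1 CPM, a log2 fold change of 1.56 ± 0.52 that did not pass the test (edgeR adjusted p = 0.155), but did without HMW replicate 1 (1.84, edgeR adjusted p = 0.0385).

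Usp18, the protease, stood at 83.1, 99.8 and 106 CPM in Ctrl. It reached 807, 912 and 681 CPM with cGAMP (log2 fold change 3.03 ± 0.26 SE, edgeR adjusted p = 2.77e-22) and 767, 781 and 792 CPM with LPS (2.99 ± 0.26, edgeR adjusted p = 2.08e-22). SeV gave 717, 721 and 657 CPM and CpGB 476, 500 and 664 CPM. HMW libraries, at 150, 175 and 112 CPM, were all above Ctrl without passing the test (0.57, edgeR adjusted p = 0.676). PAM libraries were at 144, 106 and 183 CPM, the lowest of them level with the highest Ctrl library. Zymosan libraries, at 73.62, 95.99 and 55.98 CPM, overlapped Ctrl. The plot of single ligands shows the split of the 7 ligands into 4 with a rise in all 5 genes and 3 without a call.

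**Figure D1:**
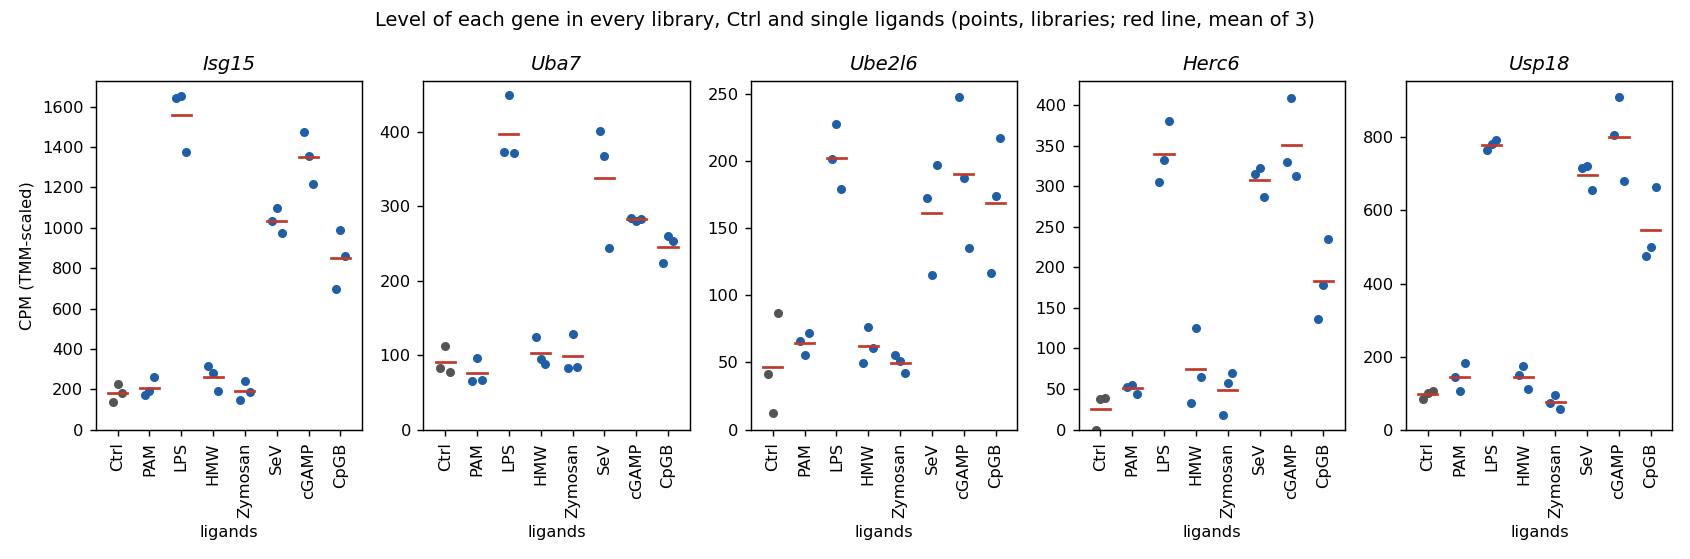
Level of Isg15, Uba7, Ube2l6, Herc6 and Usp18 (vertical axis, TMM-scaled CPM, each panel with its own scale from 0) in Ctrl and the 7 single ligands (horizontal axis); points are the 3 libraries and the red line their mean. LPS, SeV, cGAMP and CpGB stand above Ctrl in every panel, while PAM, HMW and Zymosan overlap it or lie just above it.

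Genes around this cascade were read from lists of other enzymes reported to act on ISG15, of relatives in the ubiquitin system and of interferon signalling. Of the 2 other ISG15 ligases, Trim25 rose with SeV (log2 fold change 1.58), cGAMP (1.56) and LPS (1.53), had 0.76 with CpGB, under the fold threshold, and Arih1 was called with no single ligand. Of 5 other proteases reported to cut ISG15 only Usp5 and Usp14 had enough counts, and the sole call was a fall of Usp5 with LPS (-1.56, edgeR adjusted p = 0.0270). Among 7 relatives, 4 were tested, and none was called with any single ligand. These were Uba1, the activating enzyme of ubiquitin itself, Ube2l3, the conjugating enzyme most like Ube2l6, and the large HERC proteins Herc2 and Herc4.

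The list of interferon signalling genes held 9, all tested, and 3 to 6 of them were called higher with each ligand. Stat2, which helps carry the signal of the interferon receptor to the nucleus, was higher with all 7 ligands. With HMW, where none of the 5 genes was called, Stat2 had a log2 fold change of 1.94 (edgeR adjusted p = 8.79e-07). PAM gave 1.18 and Zymosan 1.20. Irf7, the interferon regulatory factor that amplifies interferon production, was called with LPS (3.58), cGAMP (3.45), SeV (3.43), CpGB (2.86) and HMW (1.30). Ifnb1, which encodes interferon beta, was called at this time point with SeV (4.34) and cGAMP (3.93), and not with LPS (0.32, edgeR adjusted p = 0.858) or CpGB (0.70, edgeR adjusted p = 0.682).

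Across pairs and triplets, the 5 genes were called higher against Ctrl in 97 of 105 pair tests and in 175 of 175 triplet tests. Over all tested genes 13.7% were called higher per pair and 15.7% per triplet. In 18 of 21 pairs all 5 genes were called. PAM + Zymosan gave no call, HMW + Zymosan gave Isg15, Herc6 and Usp18, and PAM + CpGB gave every gene but Ube2l6. The pairs, triplets and single ligands share the same 3 Ctrl libraries. Log2 fold changes over the triplets ranged from 1.61 to 3.68 for Isg15, from 1.95 to 3.53 for Usp18, from 2.80 to 4.03 for Herc6, from 1.09 to 2.33 for Uba7 and from 1.40 to 2.39 for Ube2l6.

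**Figure D2:**
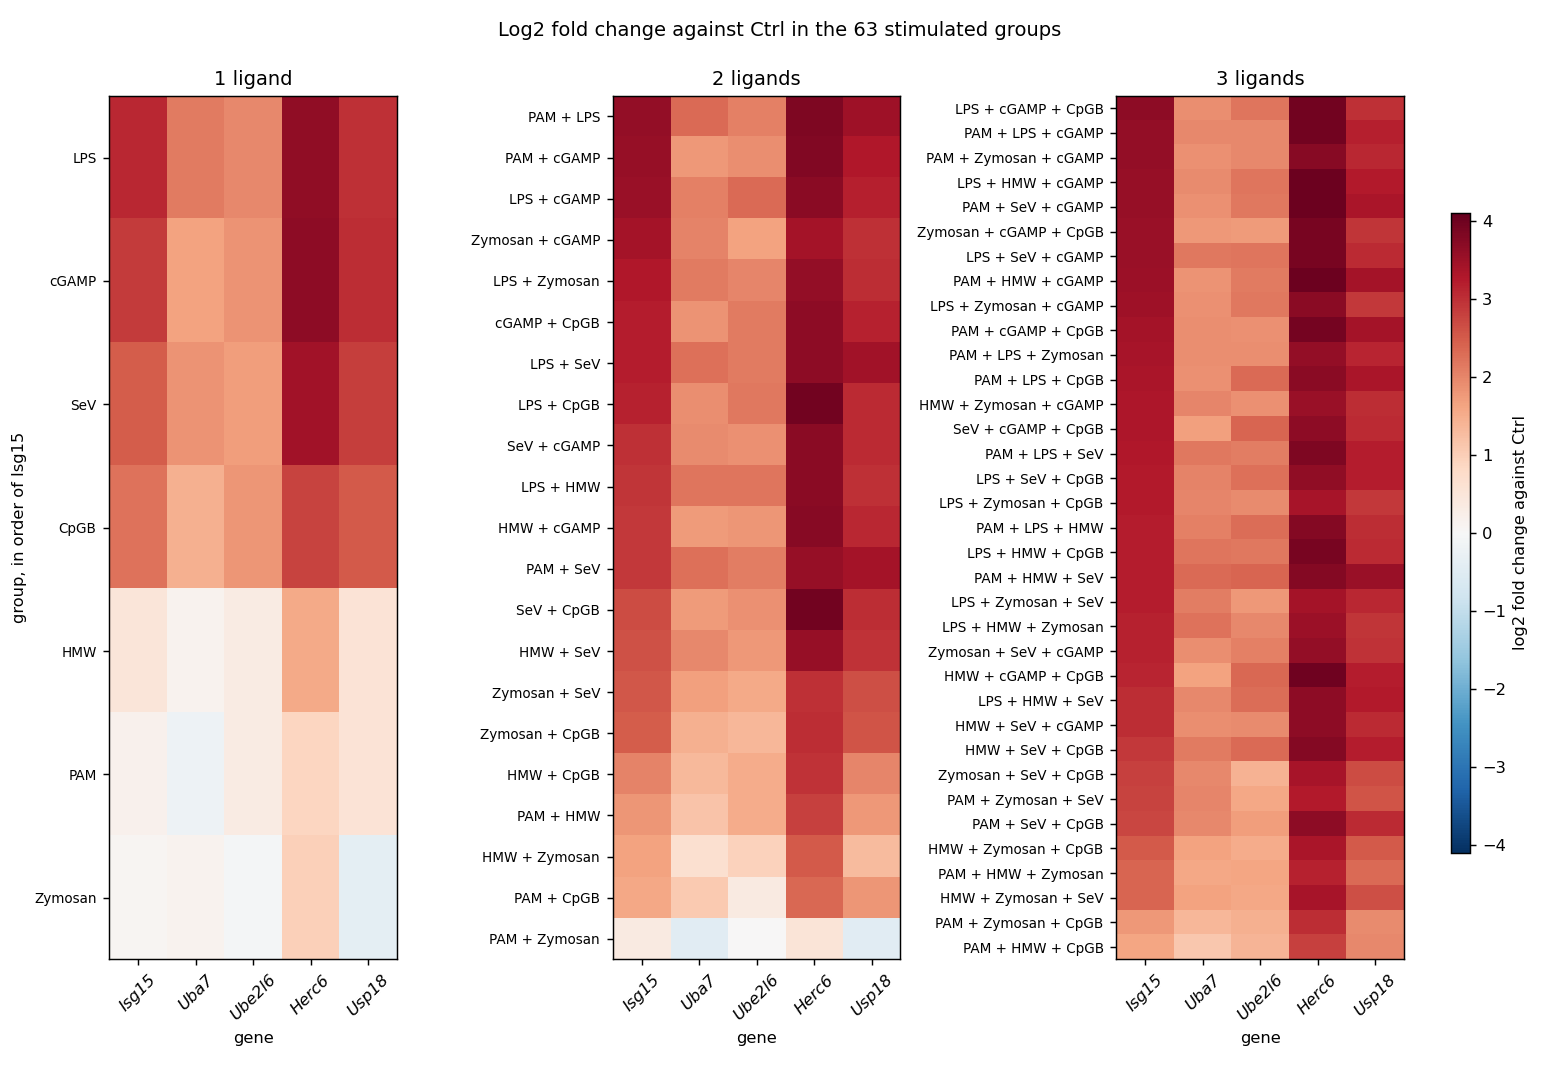
Log2 fold change against Ctrl (colour, red higher and blue lower) of the 5 genes (columns) in the groups of 1, 2 and 3 ligands (panels), with groups ordered from top to bottom by Isg15. The pale rows are PAM, HMW, Zymosan and PAM + Zymosan, of which HMW is darker for Herc6 (1.56), and every triplet is red in all 5 columns.

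The group with the highest mean differed between the genes. Isg15 was highest with LPS + cGAMP + CpGB, at 2350, 2522 and 2194 CPM, a mean 12.96 times that of Ctrl. Usp18 was highest with PAM + HMW + SeV (1039, 886 and 1407 CPM, 11.6 times Ctrl) and Herc6 with LPS + HMW + cGAMP (402, 379 and 593 CPM, 18.1 times Ctrl). Uba7 was highest with PAM + LPS (437, 470 and 454 CPM, 5.00 times Ctrl) and Ube2l6 with SeV + cGAMP + CpGB (246, 274 and 271 CPM, 5.64 times Ctrl). Ctrl was the lowest of 64 groups for Isg15, Ube2l6 and Herc6, and 62nd for Uba7 and Usp18, whose lowest group was PAM + Zymosan. Neighbours in these orders could hardly be separated: of 63 steps the 3 libraries of one group lay wholly above the next in 1 step for Isg15 (PAM + CpGB over HMW), 1 for Uba7 (HMW + Zymosan over HMW), 2 for Usp18 (HMW + Zymosan over HMW, and SeV over Zymosan + SeV + CpGB) and 0 for Ube2l6 and Herc6.

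The number of UMIs of the other genes for each UMI of Isg15 differed between groups, in ratios that were not tested. For every 100 Isg15 UMIs summed over a group's libraries there were 53.2 of Usp18 in Ctrl, 68.5 with PAM and 76.3 with PAM + SeV, the highest of 64 groups. The figure was 33.7 with LPS + cGAMP + CpGB and 30.0 with PAM + Zymosan, the lowest. Uba7 went from 48.9 in Ctrl to 14.0 with PAM + cGAMP, 14.4 with LPS + cGAMP + CpGB and 14.5 with Zymosan + cGAMP + CpGB. Herc6 had its lowest figure in Ctrl (14.9) and its highest with SeV + CpGB (36.8), while Ube2l6 went from 27.7 in Ctrl and 30.6 with PAM, the highest, to 7.92 with Zymosan + cGAMP + CpGB. The Ctrl figures rest on few UMIs (47 of Isg15, 25 of Usp18, 23 of Uba7, 13 of Ube2l6 and 7 of Herc6), as does that of Usp18 with PAM + Zymosan (30 over 100 of Isg15). These are ratios of counts, and only their change between groups is read here. In the plot of group means, groups with cGAMP extend to the right, where Isg15 was higher at similar Usp18 and Uba7.

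**Figure D3:**
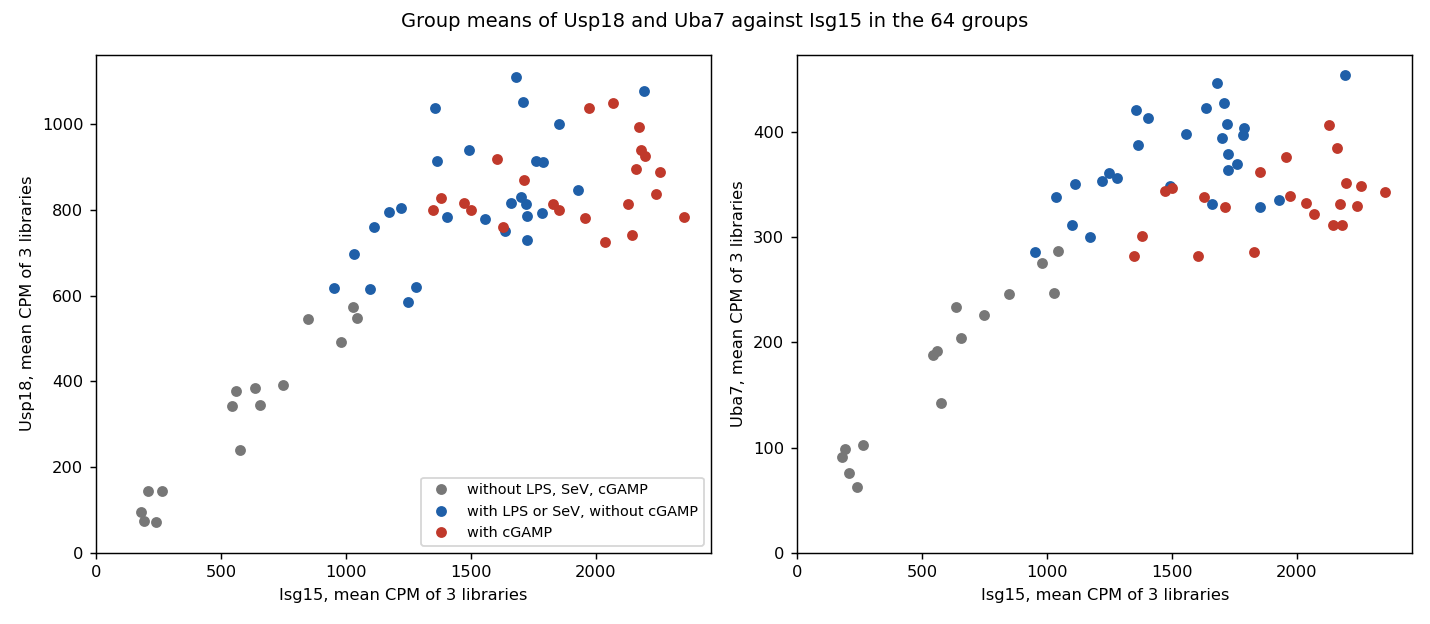
Mean CPM of Usp18 (left) and Uba7 (right) against mean CPM of Isg15 in the 64 groups, each point the mean of 3 libraries; colours mark groups with cGAMP (red), with LPS or SeV but no cGAMP (blue) and with none of these 3 (grey). Group means reach at most 1111 CPM for Usp18, 453.8 CPM for Uba7 and 2355 CPM for Isg15.

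PAM and HMW, neither of which gave a call alone, raised all 5 genes when given together. Isg15 was at 681, 733 and 553 CPM with PAM + HMW, against at most 261 CPM in any PAM library and 316 CPM in any HMW library. Usp18 was at 386, 344 and 303 CPM, Herc6 at 225, 174 and 190 CPM, Uba7 at 197, 264 and 152 CPM, and Ube2l6 at 218, 103 and 137 CPM. For each gene the 3 libraries of the pair lay above all 6 libraries of both ligands. Over the higher single ligand the log2 difference was 1.34 for Isg15, 1.24 for Herc6, 1.22 for Usp18, 1.17 for Ube2l6 and 1.02 for Uba7. The rule asked for a log2 difference of 1 or more over each ligand, and an adjusted p under 0.05 for the weaker of both comparisons. All 5 passed it (edgeR adjusted p = 6.15e-09 for Isg15, 1.04e-05 for Usp18, 0.000657 for Herc6, 0.00226 for Uba7 and 0.0132 for Ube2l6). Of all tested genes, 0.657% were called in this way for PAM + HMW and 0.353% over the 21 pairs.

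With library size as the sole scaling only Isg15 kept the call, and the others lay at log2 differences of 0.78 (Uba7) to 1.00 (Herc6, just under the threshold). In libraries thinned to the lowest total only Isg15 kept it, and the others, at 1.04 (Uba7) to 1.57 (Herc6), missed the adjusted p (edgeR, 0.0932 to 0.585). The call was kept without replicate 1 or without replicate 3 of every group by 3 of the 5. Uba7 was the gene lost without replicate 2 (0.76, edgeR adjusted p = 0.521), and it fell just under the fold threshold with RLE size factors (0.97) and with DESeq2 (0.98). The interaction, which asks whether the pair differs from the sum of both log2 effects and does use Ctrl, was called for none of the 5 in PAM + HMW (Isg15 1.15 ± 0.35 SE, edgeR adjusted p = 0.285; unadjusted p = 0.00123). At an unadjusted p under 0.05 it was passed by Isg15 and Uba7 (1.24 ± 0.44, unadjusted p = 0.00615), and 2 of 4720 genes were called positive in this pair, 0.0424%. Irf7 exceeded both ligands by 0.99 in PAM + HMW (edgeR adjusted p = 6.74e-05), and Stat2 by 0.38 without passing (edgeR adjusted p = 0.634).

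HMW + Zymosan showed the same for Isg15, at 534, 567 and 624 CPM against at most 316 CPM with HMW and 243 CPM with Zymosan (log2 difference 1.17, edgeR adjusted p = 2.44e-06), where 0.318% of all genes were called. Usp18, at 184, 283 and 252 CPM, lay above all 6 libraries of both ligands and missed the test (0.74, edgeR adjusted p = 0.119). Herc6, at 146, 118 and 193 CPM, exceeded the higher ligand by 0.95 (edgeR adjusted p = 0.0669), with 1 HMW library at 126 CPM, and passed without replicate 2 (1.75, edgeR adjusted p = 0.00126) or without the filter on low counts (1.06, edgeR adjusted p = 0.0316). Without replicate 3 of every group the Isg15 difference was 0.93 (edgeR adjusted p = 0.0955), and in thinned libraries 0.67 (edgeR adjusted p = 0.709). PAM + Zymosan, the remaining pair of these 3 ligands, gave 253, 273 and 195 CPM of Isg15. There Usp18 was at 73.7, 81.0 and 59.9 CPM and lower than with PAM alone (log2 difference -1.03, edgeR adjusted p = 0.0304), where 2.1% of all genes were called lower, a call that was lost without replicate 1 (-1.06, edgeR adjusted p = 0.0868), without replicate 3 (-0.69, edgeR adjusted p = 0.490), without the filter on low counts (-1.05, edgeR adjusted p = 0.0544) and in thinned libraries (-0.86, edgeR adjusted p = 0.407).

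PAM + HMW + Zymosan, the triplet of the ligands without a call alone, brought Isg15 to 1554, 596 and 790 CPM and Usp18 to 762, 311 and 403 CPM. Replicate 1 stood apart from the others in both genes, and in Herc6 (328, 191 and 227 CPM) and Uba7 (345, 269 and 212 CPM) it was also the highest. Isg15 exceeded the highest of the 3 pairs, PAM + HMW, by a log2 of 0.58 (edgeR adjusted p = 0.0306 for the largest of the 3 p-values), under the threshold of 1. Without replicate 1 of every group this difference was 0.15 (edgeR adjusted p = 1), and without replicate 2 it was 0.96 (edgeR adjusted p = 0.000242). It did not pass without replicate 3 (0.54, edgeR adjusted p = 0.524) or under the other scalings. With no fold threshold it was the sole call above all 3 pairs among 175 tests of the 5 genes over the 35 triplets, and 0.0297% of all genes passed per triplet. With the threshold of 1, edgeR and DESeq2 called 0 of the 5 genes above all 3 pairs, where 0.0115% of all genes were called. At an unadjusted p under 0.05 with no fold threshold edgeR had 4 of 175, of which 3 were in PAM + HMW + Zymosan.

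**Figure D4:**
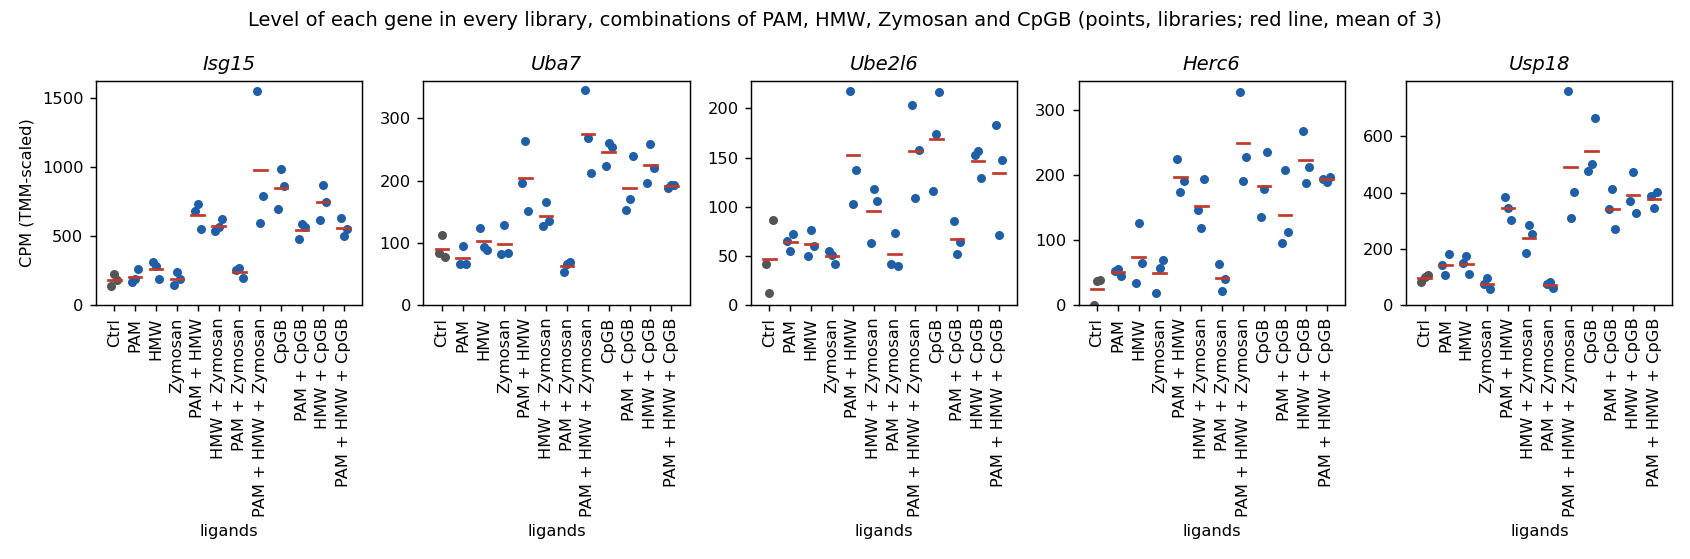
Level of the 5 genes (vertical axis, TMM-scaled CPM, each panel with its own scale from 0) in Ctrl and in the combinations of PAM, HMW and Zymosan, and with CpGB (horizontal axis); points are the 3 libraries and the red line their mean. PAM + HMW stands above PAM and HMW in every panel, 1 library of PAM + HMW + Zymosan stands apart at 1554 CPM of Isg15, and PAM + CpGB lies below CpGB for Isg15, Ube2l6 and Usp18.

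In the other 19 pairs no member exceeded both ligands by a log2 of 1. With no fold threshold 5 more calls were made, each in a pair with PAM or Zymosan: Isg15 in PAM + cGAMP (0.70, edgeR adjusted p = 0.000175), Zymosan + cGAMP (0.54, edgeR adjusted p = 0.0152) and PAM + LPS (0.52, edgeR adjusted p = 0.0121), and Usp18 in PAM + SeV (0.58, edgeR adjusted p = 0.0154) and PAM + LPS (0.49, edgeR adjusted p = 0.0402). That made 11 calls of 105, against 0.805% of all genes per pair. In PAM + cGAMP the Isg15 libraries were at 2162, 2297 and 2085 CPM, all above the 1476 CPM of the highest cGAMP library. In PAM + SeV the Usp18 libraries were at 1025, 1072 and 1016 CPM, above the 721 CPM of the highest SeV library.

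PAM had the opposite direction beside CpGB. PAM + CpGB held less Isg15 than CpGB alone, at 477, 585 and 568 CPM (log2 difference -0.66 ± 0.17 SE, edgeR adjusted p = 0.0140), and no library overlapped. Ube2l6 fell from 116, 174 and 217 CPM with CpGB to 85.9, 51.8 and 64 CPM (-1.42 ± 0.33, edgeR adjusted p = 0.00337), near the 65.6, 55.3 and 72.2 CPM of PAM alone. Usp18 fell to 344, 415 and 272 CPM (-0.69 ± 0.19, edgeR adjusted p = 0.0224). Uba7 (-0.40) and Herc6 (-0.43) did not pass the test. Of all genes, 1.27% were called lower in this comparison, and 3.82% per addition to a single ligand.

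The 3 falls were lost without replicate 3 of every group (Isg15 -0.71, edgeR adjusted p = 0.112; Ube2l6 -1.20, edgeR adjusted p = 0.270; Usp18 -0.38, edgeR adjusted p = 0.730), and those of Isg15 (-0.64, edgeR adjusted p = 0.173) and Ube2l6 (-1.32, edgeR adjusted p = 0.10) without replicate 2. They were also lost in thinned libraries. Stat2 (-1.85) and Irf7 (-1.84) had negative interactions in the same pair (edgeR adjusted p = 0.000135 and 3.79e-05). With Zymosan present, adding PAM to Zymosan + CpGB also lowered Isg15 from 1008, 1061 and 1018 CPM to 714, 552 and 645 CPM (-0.70, edgeR adjusted p = 0.00242) and Usp18 by a log2 difference of -0.61 (edgeR adjusted p = 0.0301). The Isg15 call there was lost without replicate 2 (-0.59, edgeR adjusted p = 0.148), without replicate 3 (-0.73, edgeR adjusted p = 0.0662) and in thinned libraries (-0.45, edgeR adjusted p = 0.393). The Usp18 call was also lost without replicate 2, without replicate 3 and with DESeq2.

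Pairs of the 4 ligands that acted alone stayed far below the sum of their log2 effects. The interaction was negative for all 5 genes in all 6 pairs of LPS, SeV, cGAMP and CpGB, from -3.57 to -1.25 on the log2 scale. Of all genes, 9.66% had a negative interaction in LPS + CpGB, 9.05% in LPS + cGAMP, 7.9% in LPS + SeV, 7.75% in SeV + cGAMP, 5.68% in SeV + CpGB and 5.3% in cGAMP + CpGB. With LPS + cGAMP, Isg15 was at 2241, 2290 and 1950 CPM, a log2 difference of 0.47 ± 0.14 over LPS (edgeR adjusted p = 0.0214) and an interaction of -2.40 ± 0.27 (edgeR adjusted p = 3.35e-14). Herc6 was at 438, 325 and 352 CPM, overlapping both LPS and cGAMP alone, with an interaction of -3.57 ± 0.47 (edgeR adjusted p = 5.13e-11). The size of this value rests partly on the 7 Herc6 UMIs of Ctrl. Usp18 had an interaction of -2.83 ± 0.32 and Uba7 one of -1.72 ± 0.35 (edgeR adjusted p = 1.48e-14 and 3.63e-05). In Ube2l6 the value was -1.50 ± 0.48 (edgeR adjusted p = 0.0212), which did not pass without replicate 1 (-1.24, edgeR adjusted p = 0.156) or without replicate 2 (-1.11, edgeR adjusted p = 0.255), with DESeq2 (-1.45, DESeq2 adjusted p = 0.0547) or in thinned libraries (-0.68, edgeR adjusted p = 0.580). Thinning also ended the Uba7 call (-1.25, edgeR adjusted p = 0.0984).

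With PAM + CpGB, where 6.82% of all genes had a negative interaction and Ube2l6 (-1.76 ± 0.58, edgeR adjusted p = 0.0326) and Usp18 (-1.25 ± 0.39, edgeR adjusted p = 0.0218) were called, this made 32 negative interactions of 105 and 0 positive ones by edgeR, against 3.5% negative and 1.08% positive over all genes. In libraries thinned to the lowest total the negative calls numbered 17. DESeq2 also called 0 positive, and at an unadjusted p under 0.05 edgeR had 4, Isg15 and Uba7 in PAM + HMW and Isg15 and Usp18 in HMW + Zymosan. The 2 calls in PAM + CpGB were lost without replicate 3 (-2.37, edgeR adjusted p = 0.0765 for Ube2l6; -0.81, edgeR adjusted p = 0.472 for Usp18), and that of Ube2l6 without replicate 2 (-1.39, edgeR adjusted p = 0.258). DESeq2 called neither (Ube2l6 -1.66, DESeq2 adjusted p = 0.0724, and Usp18 -1.14, DESeq2 adjusted p = 0.0584), both were lost in thinned libraries, and Ube2l6 was lost with library size as the sole scaling (-1.60, edgeR adjusted p = 0.0550). The 21 interactions share the Ctrl libraries, and each ligand enters 6 of them.

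The mean effect of adding a ligand was compared over its 6 partners, which uses no Ctrl library. On average all 5 genes rose when LPS, cGAMP, SeV or CpGB was added, and the lowest of these means was 0.55 (Ube2l6 with CpGB). By single partner, each of these ligands raised all 5 genes beside PAM, HMW or Zymosan, except CpGB beside PAM (4 genes). Beside one another at most 3 genes were called higher. None was called for CpGB added to LPS, SeV or cGAMP, or for SeV added to LPS or cGAMP. For Isg15 the mean log2 difference was 1.90 ± 0.07 (SE) with LPS, 1.85 ± 0.07 with cGAMP, 1.33 ± 0.07 with SeV and 0.99 ± 0.07 with CpGB. Uba7 showed 1.31 ± 0.08 with LPS against 0.98 ± 0.09 with cGAMP. Of all tested genes, 25.6% were called higher for LPS, 24% for cGAMP, 17.4% for SeV and 15.6% for CpGB. Calls on these means needed no minimum fold, only an adjusted p under 0.05.

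HMW raised 4 of the 5 genes on average: Herc6 by 0.66 ± 0.10 (edgeR adjusted p = 6.81e-08), Isg15 by 0.50 ± 0.07 (1.50e-09 by the same test), Usp18 by 0.44 ± 0.08 and Uba7 by 0.34 ± 0.09, where 3.58% of all genes were called. By single partner, HMW raised all 5 genes beside PAM and 3 beside Zymosan. No gene was called on adding HMW to LPS, SeV, cGAMP or CpGB, where Isg15 moved by -0.20 to 0.12. The mean call of Uba7 was lost without replicate 3 (0.28, edgeR adjusted p = 0.218), and those of Uba7 and Usp18 in thinned libraries (edgeR adjusted p = 0.499 and 0.150). Ube2l6 missed the threshold at 0.36 ± 0.12 (edgeR adjusted p = 0.0529) and passed without the filter on low counts (0.41, edgeR adjusted p = 0.0325). PAM raised Isg15 by 0.43 ± 0.07 (edgeR adjusted p = 2.55e-07) and Usp18 by 0.30 ± 0.09 (edgeR adjusted p = 0.00833), with 14.9% of all genes called. The Usp18 call with PAM was lost without replicate 2 (0.28, edgeR adjusted p = 0.0712), without replicate 3 (0.28, edgeR adjusted p = 0.0899), with library size as the sole scaling (0.12, edgeR adjusted p = 0.315) and in thinned libraries (0.17, edgeR adjusted p = 0.381). Zymosan raised Isg15 by 0.40 ± 0.07 (edgeR adjusted p = 1.10e-06) with 14% of all genes called, and the 95% confidence intervals of its effect on the others were -0.10 to 0.27 for Uba7, -0.32 to 0.17 for Ube2l6, -0.21 to 0.25 for Herc6 and -0.24 to 0.09 for Usp18. Over the 42 single additions, 92 of 210 tests were called higher and 4 lower, against 6.8% of all genes higher and 3.82% lower.

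**Figure D5:**
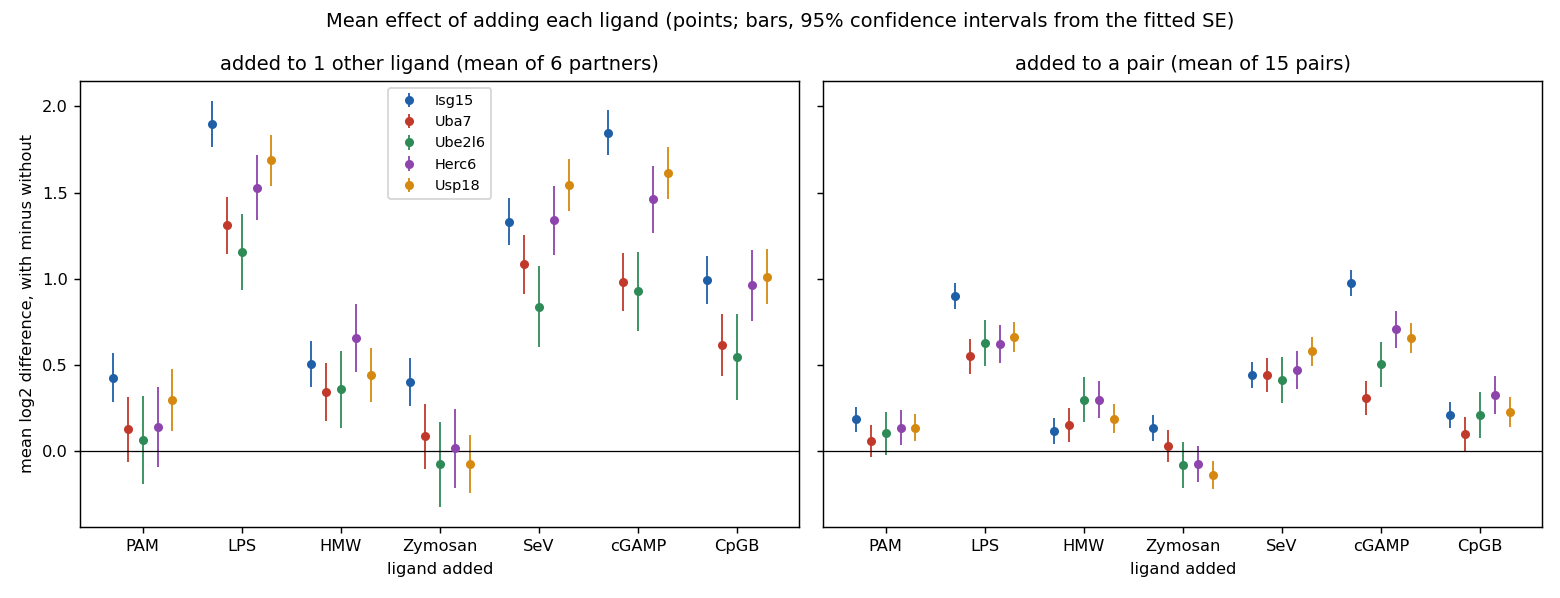
Mean log2 difference with against without a ligand (vertical axis) for each of the 7 ligands (horizontal axis) and the 5 genes (colours), added to 1 other ligand (left, 6 partners) or to a pair (right, 15 pairs); bars are 95% confidence intervals from the fitted SE. For LPS, SeV, cGAMP and CpGB the differences in all 5 genes are smaller on the right, where more of the partners already hold another of these ligands. On the right, cGAMP raises Isg15 by 0.97 against 0.31 for Uba7.

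Among partners, pairs held another of LPS, SeV, cGAMP and CpGB more often than single ligands did, so both means rest on unlike partners. Added to pairs, these ligands had smaller mean differences in all 5 genes than added to single ligands, a contrast that was not tested. cGAMP raised Isg15 by 0.97 ± 0.04 (edgeR adjusted p = 1.16e-64), Herc6 by 0.71 ± 0.06, Usp18 by 0.66 ± 0.04, Ube2l6 by 0.50 ± 0.07 and Uba7 by 0.31 ± 0.05, with intervals of 0.90 to 1.05 for Isg15 and 0.21 to 0.41 for Uba7. LPS gave 0.90 ± 0.04 for Isg15 and 0.55 ± 0.05 for Uba7. SeV raised all 5 genes by 0.41 (Ube2l6) to 0.58 (Usp18). CpGB raised every gene but Uba7, by 0.21 to 0.32, and the Ube2l6 call was lost without replicate 3 (0.14, edgeR adjusted p = 0.309). Thinning ended the CpGB calls of Ube2l6 and Herc6 (edgeR adjusted p = 0.356 and 0.0560) and the cGAMP call of Uba7 (0.19, edgeR adjusted p = 0.0683). Of all genes, 23.9% were called higher with LPS, 23.9% with cGAMP, 11.3% with CpGB and 12.5% with SeV.

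HMW, PAM and Zymosan had mean effects of 0.30 or less in this comparison. HMW raised Herc6 (0.30 ± 0.06), Ube2l6 (0.30 ± 0.07) and Usp18 (0.19 ± 0.04) on average, with 3.71% of all genes called. By single pair, HMW raised all 5 genes beside PAM + Zymosan, with a median log2 difference of 2.06, and no gene beside any other pair. Of the mean calls with HMW, Ube2l6 (0.26, edgeR adjusted p = 0.109) and Usp18 (0.15, edgeR adjusted p = 0.191) were lost without replicate 3, and Usp18 also without replicate 1 (0.16, edgeR adjusted p = 0.0651). PAM raised Isg15 (0.18 ± 0.04), Usp18 (0.13 ± 0.04) and Herc6 (0.13 ± 0.05), with 14.5% of all genes called, and none of the 3 was called with library size as the sole scaling. The Herc6 call was also lost without any 1 of the replicates, with RLE size factors (0.11, edgeR adjusted p = 0.0985) and with DESeq2 (0.11, DESeq2 adjusted p = 0.118), and that of Usp18 without replicate 1 or 3. In thinned libraries neither of these 2 calls nor any of the 3 with HMW was kept. With Zymosan 1 of the 5 genes was called higher and 1 lower, shares near those of all genes. Isg15 rose by 0.13 ± 0.04 (edgeR adjusted p = 0.00260) and Usp18 fell by 0.14 ± 0.04 on the log2 scale (edgeR adjusted p = 0.00341), with 17.2% of all genes called higher and 16.5% lower. The first was lost without replicate 3 (0.11, edgeR adjusted p = 0.0598) and the second without replicate 2 (-0.06, edgeR adjusted p = 0.386), and neither was called in thinned libraries (edgeR adjusted p = 0.278 and 0.232). Zymosan added to PAM + SeV took Usp18 from 1025, 1072 and 1016 CPM to 596, 570 and 591 CPM (-0.82 ± 0.16, edgeR adjusted p = 3.34e-05), while Isg15 was at 1274, 1140 and 1335 CPM against 1316, 1451 and 1304 CPM. Over the 105 additions to a pair, 115 of 525 tests were called higher and 3 lower, against 3.57% and 1.91% of all genes.

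The genes most like each member over the 64 group means were found by Pearson's r of log2 CPM among the 4500 genes whose mean reached 20 CPM. For Isg15 they were Oasl2 (r = 0.98), Ifi205, Ifit1 and Ifi47. For Usp18 they were Phf11b (r = 0.98), Irf7, Mx1 and Ifi47, and for Herc6 Trim30a (r = 0.98), Trim30d, Parp12 and Ifi47. Uba7 was most like Irf7 (r = 0.96), Ifi47, Lgals9 and Tap1, and Ube2l6 most like the guanylate-binding protein genes Gbp3 (r = 0.95) and Gbp2, then Irf7 and Herc6. Among the members themselves r lay between 0.89 (Uba7 with Ube2l6) and 0.96 (Herc6 with Usp18). Herc6 was the sole member among the 4 closest genes of another. Groups share ligands and all values of a group share its 3 libraries, so these correlations are a description.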

How the data were processed

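Polyadenylated RNA was counted in 192 libraries, and the deposited table holds UMI counts per gene, not normalized by the authors. The submitters' processing notes name the mm10 build and BWA 0.7.15, and the treatment of multi-mapped reads is not given in the sources used here. Groups were taken from the labels, with 3 libraries each. The members and gene lists were chosen with earlier results of these data known. Counts were fitted over all libraries with edgeR 4.0.16 (R 4.3.3): TMM scaling, filterByExpr by group, which kept 4720 of 23481 genes and 95.7% of UMIs, and the quasi-likelihood test with 128 residual degrees of freedom and Benjamini-Hochberg adjustment over all tested genes of each comparison. Comparisons with Ctrl and with both single ligands or all 3 pairs also required a log2 fold change of at least 1. The script was tested on simulated data. Genes named beside the members were the 4 with the highest Pearson's r among genes whose mean reached 20 CPM, and all members of the fixed lists were counted. Promoter sequences are from RefSeq on GRCm38.p6, where 4 of the 5 genes had an entry (Usp18 was not searched). Alternatives were RLE and library-size scaling, no filter, libraries thinned to the lowest total, DESeq2 1.42.0, a replicate block, fits on a ligand and Ctrl alone, and leaving out each replicate. The values of 1 listed gene are not reported here. No library was left out, and no 2 columns were identical.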

Additional observations from a re-analysis of the deposited data

How the results depend on the processing

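Of 378 recomputed counts of called members, 343 stayed within 1.5 times the reported value, and of 1533 recomputed values of single genes 1403 kept their direction and their side of the threshold. The calls with LPS, SeV, cGAMP and CpGB alone numbered 5 each under every alternative run except for Ube2l6 with LPS in thinned libraries (1.25, edgeR adjusted p = 0.0542). In libraries thinned to the lowest total, where fewer genes were tested, calls above both single ligands went from 6 to 1, members above both in PAM + HMW from 5 to 1, negative interactions from 32 to 17, higher calls over 105 additions to a pair from 115 to 70 and lower calls over 42 additions to a single ligand from 4 to 0. There the members higher on average went to 1 for PAM and 2 for HMW added to single ligands, and for additions to pairs to 1 for PAM, 0 for HMW, 0 for Zymosan and 2 for CpGB. With library size as the sole scaling, calls above both single ligands were 2, with 1 in PAM + HMW, and PAM raised 1 member over single ligands and 0 over pairs. With no fold threshold, 11 calls lay above both single ligands and 1 above all 3 pairs. Without the filter on low counts HMW raised 5 members over pairs. Leaving out replicates gave 3 to 6 calls above both single ligands, 3 to 4 in PAM + HMW, 0 to 3 lower calls over additions to single ligands, 1 to 4 over additions to pairs, 1 to 2 members for PAM over single ligands and 1 to 2 over pairs, 1 to 5 for HMW over pairs, 0 to 1 for Zymosan over pairs, 0 to 1 for the fall over pairs and 0 to 1 for HMW alone. Beyond the scaling, filter and depth named here, the cause was not tested.

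Changes of sign touched only values that were not called. Zymosan alone moved Isg15 to -0.037 with RLE, -0.042 with library size, -0.038 with DESeq2 and -0.00016 in the fit on Zymosan and Ctrl alone, Uba7 to -0.0034 with RLE, -0.0084 with library size and -0.0035 with DESeq2, Ube2l6 to 0.11 without the filter and Herc6 to -0.30 when thinned. Zymosan added to single ligands moved Herc6 to -0.020 with RLE and DESeq2, -0.092 with library size and -0.17 when thinned, and Uba7 to -0.024 with library size. PAM added to single ligands moved Uba7 to -0.053, Ube2l6 to -0.12 and Herc6 to -0.040 with library size, and PAM added to pairs moved Uba7 to -0.043. Thinned libraries gave Uba7 -0.0090 for CpGB added to pairs, Uba7 0.39 for the PAM + CpGB interaction, Ube2l6 -0.22 for HMW alone and Herc6 0.28 for PAM + CpGB minus CpGB. Leaving out replicates gave, for PAM alone, Isg15 from -0.0025 to 0.46 and Ube2l6 from -0.043 to 1.28, for HMW alone Ube2l6 from -0.22 to 1.33, and for Zymosan alone Isg15 from -0.069 to 0.29, Uba7 from -0.083 to 0.34 and Ube2l6 from -0.50 to 1.00. For Zymosan added to single ligands it gave Uba7 from -0.021 to 0.15, Ube2l6 from -0.17 to 0.017 and Herc6 from -0.12 to 0.20, and for the PAM + HMW interaction Herc6 from -0.30 to 0.85.

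The scaling moved all genes: over the 7 single ligands calls were 2876 higher and 1635 lower with TMM, 2508 and 2105 with RLE, and 2290 and 2612 with library size. DESeq2, which differs in its test as well as its scaling, gave 2162 and 1839. Over the additions to a pair, calls of all genes were 17694 higher and 9447 lower with TMM, and 14183 and 15404 with library size. Same-numbered libraries of different groups had a mean correlation of 0.008 in their deviations, with a highest of 0.18, and 7 of 6048 pairs were over 0.1. These values show little shared deviation by number. They cannot exclude that same-numbered libraries share an animal or culture, which the labels do not give. A replicate block raised the members called for HMW over pairs from 3 to 5 (Isg15 and Uba7 added), brought Ube2l6 past the threshold for HMW added to single ligands (0.36, edgeR adjusted p = 0.0425) and changed no other call recomputed here. Depth limits Ctrl most, where Herc6 rests on 0 to 4 UMIs and Ube2l6 on 1 to 9 UMIs per library.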
